A study of Mus musculus with 6 samples.

Results

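The cadherins and protocadherins are a family of calcium-dependent adhesion proteins of the cell surface, and their transcripts were read in NG2-lineage cells of the spinal cord. Members were the rows of the count table whose mouse symbol is Cdh followed by a digit, or Pcdh followed by a digit or by the letters a, b or g. The rule found 59 rows among the 38293 of the table. Of these rows, 49 had enough reads to be tested and 10 did not.

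The comparison was of 3 libraries labelled EAE with 3 labelled Control. EAE, experimental autoimmune encephalomyelitis, is an induced autoimmune attack on myelin of the brain and spinal cord. All 6 came from spinal cords of female mice of the genotype NG2-CreERTM:Rosa-tdTomato/+:Cx3cr1GFP/+, so both groups carried an inducible Cre, a red reporter and a green fluorescent protein allele of the microglial receptor gene Cx3cr1. Live cells positive for tdTomato were sorted and read as bulk RNA-seq, with actinomycin D, a transcription blocker, present during dissociation. The NG2 promoter that drives the Cre is active in oligodendrocyte precursors and also in pericytes and smooth muscle cells, and cells that later arise from a marked precursor keep the reporter. The age of the mice, the time after EAE induction, the time of Cre induction and what the Control mice received were not found in the labels. Whether each library is 1 animal is not stated, so p-values speak of the spread among these 6 libraries, which may be technical in part.

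Classical cadherins bind the same or a related cadherin on the neighbouring cell and couple, through catenins, to the actin cytoskeleton. Type I members such as N-cadherin and type II members such as VE-cadherin differ in the sequences that make this contact. Protocadherins have no catenin-binding tail of the classical kind. The clustered alpha, beta and gamma genes stand in a row on 1 chromosome and give each neuron its own combination of surface proteins, while the nonclustered delta genes are scattered over the genome. In the central nervous system, these proteins are best known from neurons, where they take part in axon growth and self-avoidance, and VE-cadherin is known from the junctions of vessel endothelium.

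Totals ran from 26220351 to 28734798 reads in EAE libraries and from 22141522 to 25675547 in Control libraries. The member rows took 0.257% to 0.313% of the reads in EAE libraries and 0.219% to 0.257% in Control libraries. The first principal component separated the groups, from -100.2 to -38.3 in EAE and from 47.8 to 76.0 in Control. On the second component Control replicate 3 stood at -80.5, and Control replicates 1 and 2 at 48.2 and 46.4. Marker lists showed what the sort held. Mature oligodendrocyte markers summed to between 30500 and 48300 CPM (counts of a gene scaled to a common library total) in EAE and between 33300 and 38700 CPM in Control, and precursor markers to between 5430 and 6500 CPM in EAE and between 3110 and 4720 CPM in Control. Of the precursor markers, Cspg4 is also in the list of pericyte and smooth muscle markers, and DESeq2 called it lower while edgeR did not call it. The 16 endothelial markers, which NG2-driven Cre is not known to mark, summed to between 341 and 466 CPM in EAE and between 1540 and 2670 CPM in Control. Astrocyte markers summed to 372 to 455 CPM in EAE and 247 to 462 CPM in Control, Schwann cell markers to 129 to 298 CPM in EAE and 121 to 226 CPM in Control, and neuron markers to 52.4 to 115 CPM in EAE and 21.9 to 33.7 CPM in Control. Ependymal markers summed to 27.2 to 32.5 CPM in EAE and 36.7 to 50.3 CPM in Control, and fibroblast and meningeal markers, which include the precursor gene Pdgfra, to 317 to 392 CPM in EAE and 265 to 398 CPM in Control. Pdgfra made up most of that last sum, and the 8 tested fibroblast and meningeal markers had a median log2 fold change of -1.58, with 3 called lower and 0 higher by edgeR, 4 at an unadjusted p under 0.05 and 4 called lower by DESeq2. Over all tested genes, edgeR called 4.33% lower and 2.82% higher, 20.2% had an unadjusted p under 0.05, and DESeq2 called 7.10% lower. Myeloid markers reached 40.8 to 344 CPM in EAE and 31.0 to 46.8 CPM in Control, and T cell markers 0.558 to 14.1 CPM in EAE and 0.443 to 1.11 CPM in Control. EAE replicate 3 was the highest library for the precursor, Schwann cell, myeloid, T cell and neuron sums. Among the 10 neuron markers only Slc17a6, and among the 11 fibroblast and meningeal markers only Slc22a6, had no read in any library. Of the neuron markers 7 were tested, with 1 called higher and 1 lower by edgeR.

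In EAE, 2 members were higher and 3 were lower than in Control. The higher ones were Cdh13, T-cadherin, by 2.85-fold and Cdh20, a type II classical cadherin, by 1.60-fold. The lower ones were Pcdh18 by 7.54-fold, Cdh5, which encodes VE-cadherin, by 5.62-fold and Pcdh19 by 1.69-fold. Each passed edgeR's quasi-likelihood test with Benjamini-Hochberg adjustment over all 16966 tested genes, at an adjusted p under 0.05. The higher members were 4.08% of the 49 tested and the lower ones 6.12%. Over all tested genes, edgeR called 2.82% higher and 4.33% lower, 7.14% in all. The shares of members that edgeR called were near this background. DESeq2 called 9 members higher, or 18.4% of those tested, where it called 5.65% of all genes. It called 5 lower, or 10.2%, where it called 7.10% of all genes. limma-voom called 3 members higher and 3 lower, or 6.12% each, beside 1.86% and 3.98% of all genes.

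The fitted log2 fold change was above 0 for 36 of 49 tested members, or 73.5%, where over all tested genes it was above 0 for 50.3%. The median log2 fold change of the tested members was 0.40, beside 0.004 for all tested genes. For 18 members, or 36.7%, every EAE library was above every Control library, beside 13.4% of all tested genes. For 5 members, or 10.2%, every EAE library was below every Control library, also beside 13.4% of all tested genes. An unadjusted p under 0.05 was reached by 18 members, 36.7% of those tested, beside 20.2% of all tested genes. Outside the 3 clusters, 16 of 26 tested members had a fold change above 0, with a median log2 fold change of 0.16. Of these 26, 9 had every EAE library above every Control library, 5 had every EAE library below, and 12 had an unadjusted p under 0.05. These are descriptions and no test of the family as a whole, and clustered rows can share reads with each other.

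**Figure D1:**
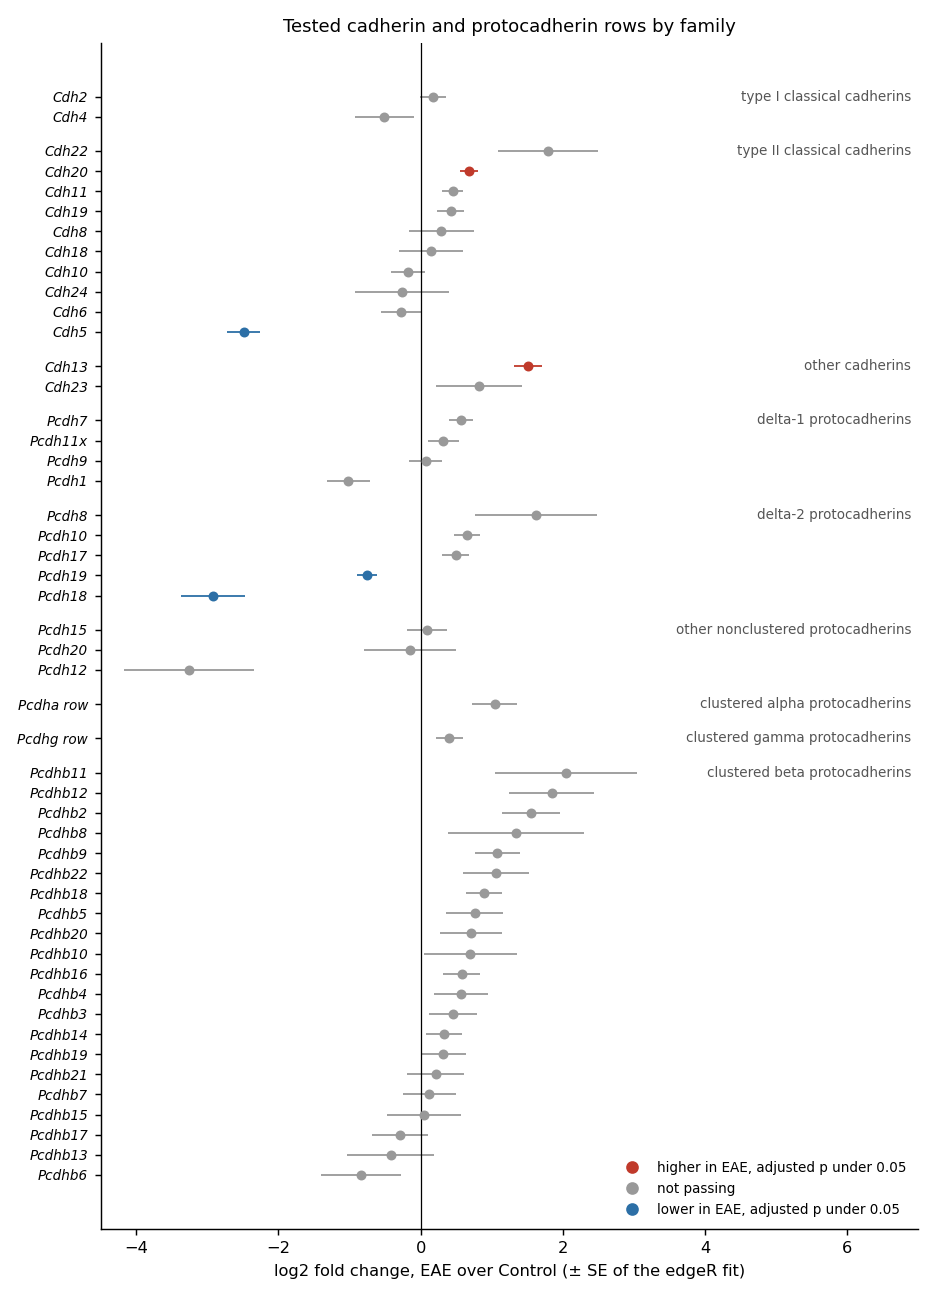
Log2 fold change of EAE over Control for each of the 49 tested rows, grouped by family, with bars of 1 SE from the edgeR fit. Red points passed the test as higher in EAE, blue points as lower, and grey points did not pass. Most beta rows sit to the right of 0, and Pcdh12, Pcdh18 and Cdh5 sit farthest to the left.

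Read per length of the counted feature, Pcdh9, a delta-1 protocadherin of the nervous system, had the highest level of all members in both groups. It had 130 CPM per kb in EAE and 124 CPM per kb in Control. Its counted length was 3714 bp, beside 6783 exonic bp in the annotation, so this rank depends on the length used. Cdh5 was next in Control at 39.0 CPM per kb and stood at 6.94 CPM per kb in EAE. The row that stands for the gamma cluster, Cdh11, Pcdh7 and Cdh20 lay within a narrow range, from 26.4 to 27.8 CPM per kb in EAE and from 16.6 to 20.2 CPM per kb in Control. Neighbours in that range were closer to each other than the libraries of a group were spread, so their order is not fixed by these data. Their closeness also depends on the lengths used. The gamma row was divided by 26094 bp, where no single gamma gene has more than 7627 exonic bp, so its value is not the level of 1 gene. Cdh11 and Pcdh7 were counted over 4216 and 6204 bp, beside 8904 and 10604 exonic bp in the annotation. Pcdh18 had 2.11 CPM per kb in EAE and 15.9 CPM per kb in Control, and Cdh23 was the lowest tested member in Control, with 0.121 CPM per kb in EAE and 0.0683 CPM per kb in Control.

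**Figure D2:**
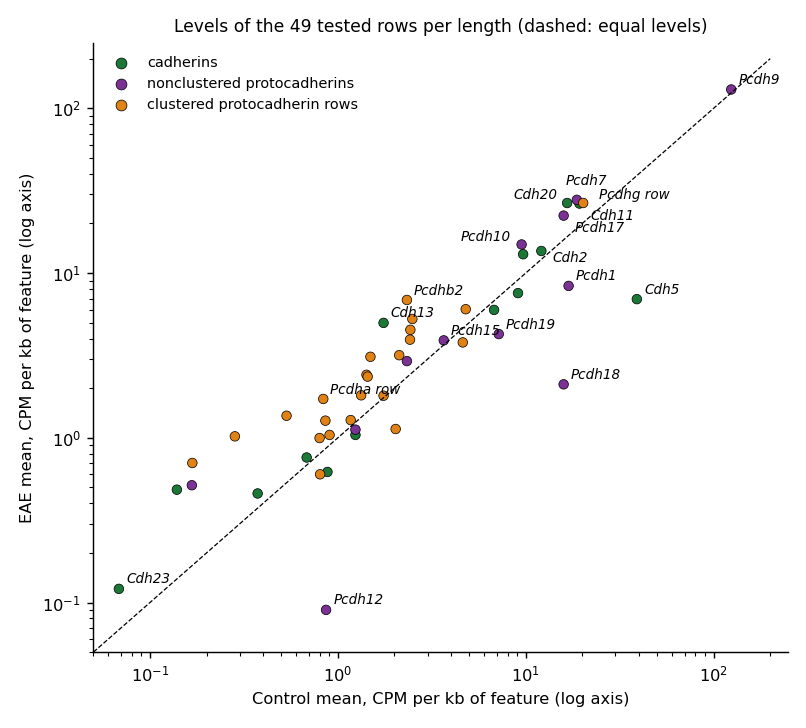
Mean level of the 49 tested rows in EAE (vertical) against Control (horizontal), in CPM per kb of feature on log axes, coloured by kind of member. Cdh5 and Pcdh18 lie far below the dashed line of equal levels, and Pcdh9 lies on it at the top.

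Of the type I classical cadherins, 2 of 5 rows could be tested, and neither passed. Cdh2 encodes N-cadherin, the classical cadherin of neural and mural cells. It measured 106, 89.4 and 134 CPM in the EAE libraries and 103, 105 and 84.7 CPM in the Control libraries. The groups overlapped, and the log2 fold change was 0.17 ± 0.18 (SE) with an edgeR adjusted p of 0.689. Cdh4, R-cadherin, averaged 4.48 ± 0.741 CPM in EAE and 6.36 ± 2.74 CPM in Control (SD, n = 3 each), also with overlapping groups. Cdh1, E-cadherin of epithelia, had 2 reads in EAE libraries and none in Control libraries.

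Among the 13 type II rows, 10 were tested, 1 was higher and 1 was lower. Cdh5 (ENSMUSG00000031871, chromosome 8, 104101625 to 104144511, plus strand, GRCm38) encodes VE-cadherin, the adhesion protein of endothelial adherens junctions. It had 21.8, 24.0 and 37.2 CPM in the EAE libraries and 175, 142 and 150 CPM in the Control libraries. Every EAE library was far below every Control library. The means were 27.7 ± 8.31 CPM in EAE and 156 ± 17.1 CPM in Control (SD, n = 3 each), a log2 fold change of -2.49 ± 0.23 (SE) with an edgeR adjusted p of 0.00101. The call held without any 1 of the 6 libraries, with an adjusted p of at most 0.00988. In the same libraries the 16 endothelial markers, of which Cdh5 was not one, summed to 466, 355 and 341 CPM in EAE and 2670, 2020 and 1540 CPM in Control. All 16 of these markers were called lower, with a median log2 fold change of -2.48. Expressed as a percentage of that sum, Cdh5 was 4.68, 6.76 and 10.9 in EAE and 6.55, 7.03 and 9.74 in Control, and these groups overlapped. In bulk RNA, fewer cells of a type and less RNA per cell cannot be told apart.

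Cdh20 (ENSMUSG00000050840, chromosome 1, 104768529 to 104995481, plus strand) was the type II member called higher. Its levels were 112, 111 and 98.2 CPM in EAE libraries and 68.3, 63.5 and 68.2 CPM in Control libraries. The groups did not overlap and the libraries of each group were close together. The means were 107 ± 7.56 CPM in EAE and 66.7 ± 2.75 CPM in Control (SD, n = 3 each), with a log2 fold change of 0.68 ± 0.13 (SE) and an edgeR adjusted p of 0.0185. The call was lost without EAE replicate 1 (adjusted p = 0.0770), EAE replicate 2 (0.0513), Control replicate 1 (0.0799) or Control replicate 2 (0.0936). Markers of newly formed oligodendrocytes, of which 9 of 10 were called higher, summed to 3740, 3500 and 3330 CPM in EAE and 1460, 1670 and 1630 CPM in Control. Cdh20 as a percentage of that sum was lower in every EAE library, at 2.99, 3.17 and 2.95, than in any Control library, at 4.68, 3.8 and 4.18. Relative to the precursor sum, of whose markers 4 of 11 tested were called higher, its percentage was 1.96, 2.04 and 1.51 in EAE and 2.20, 1.68 and 1.44 in Control, with overlapping groups. The part of these markers in the result was not tested.

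The other type II cadherins did not pass the edgeR test. Cdh11, or OB-cadherin, known from mesenchymal cells, had 109, 126 and 99.0 CPM in EAE and 77.7, 90.9 and 75.6 CPM in Control. All EAE libraries were above the Control libraries, but the adjusted p was 0.132 for a log2 fold change of 0.45 ± 0.15 (SE, edgeR). Cdh19, a cadherin of neural crest derivatives, showed the same arrangement. Its values were 40.2, 43.2 and 35.5 CPM in EAE and 31.8, 24.5 and 32.4 CPM in Control, with an edgeR adjusted p of 0.248. Cdh10 had 69.0, 72.1 and 38.9 CPM in EAE and 61.3, 68.1 and 75.1 CPM in Control, and EAE replicate 3 stood apart below the rest. Cdh6 had 12.3, 20.7 and 26.6 CPM in EAE and 21.0, 26.3 and 24.5 CPM in Control, with overlapping groups. The 4 remaining tested type II members, Cdh8, Cdh18, Cdh22 and Cdh24, averaged 1.79 to 3.55 CPM in EAE and 0.516 to 3.39 CPM in Control. Of these only Cdh22 had groups that did not overlap, from 154 reads in EAE and 37 in Control. Its log2 fold change was 1.79 ± 0.70 (SE) with an edgeR adjusted p of 0.189.

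Cdh13 and Cdh23, which differ from the classical type in how they are built or anchored, were both tested. Cdh13 (ENSMUSG00000031841, chromosome 8, 118283733 to 119324921, plus strand) encodes T-cadherin, which is held in the membrane by a lipid anchor, lacks the catenin-binding tail and binds adiponectin. It had 57.6, 45.1 and 63.7 CPM in EAE libraries and 16.4, 20.0 and 22.1 CPM in Control libraries. The lowest EAE library was above the highest Control library. The means were 55.5 ± 9.5 CPM in EAE and 19.5 ± 2.87 CPM in Control (SD, n = 3 each), with a log2 fold change of 1.51 ± 0.20 (SE) and an edgeR adjusted p of 0.00403. It was the only member called higher without any 1 of the 6 libraries, with an adjusted p of at most 0.0282. Cdh13 as a percentage of the newly formed oligodendrocyte sum was 1.54, 1.29 and 1.91 in EAE and 1.12, 1.2 and 1.36 in Control, with overlapping groups. Its percentage of the precursor sum was higher in every EAE library, at 1.01, 0.831 and 0.980, than in any Control library, at 0.527, 0.531 and 0.468. Which cells gave the Cdh13 reads was not tested. Cdh23, a tip-link protein of inner ear hair cells, averaged 2.05 ± 0.939 CPM in EAE and 1.16 ± 0.258 CPM in Control and did not pass (edgeR adjusted p = 0.516).

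**Figure D3:**
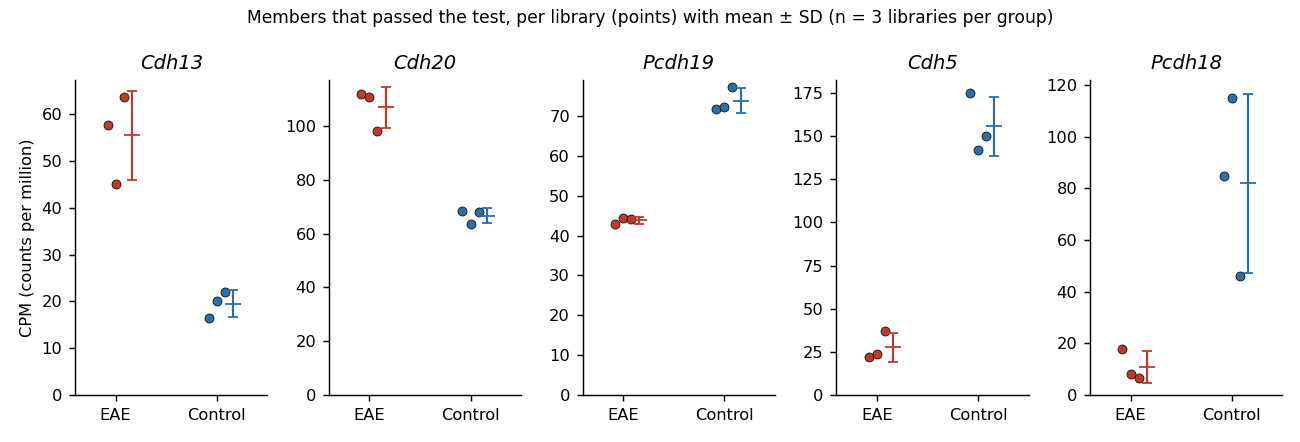
CPM of the 5 members that passed the test, each library as a point with the mean and SD of its group (n = 3), EAE left and Control right. Cdh5, Pcdh18 and Pcdh19 are lower in all EAE libraries, and Cdh13 and Cdh20 are higher in all EAE libraries.

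The delta-2 protocadherins held both protocadherins that edgeR called, Pcdh18 and Pcdh19, each lower in EAE. Pcdh18 (ENSMUSG00000037892, chromosome 3, 49743296 to 49757325, minus strand) encodes a protein that binds the adaptor Dab1 in mouse. It had 17.9, 8.20 and 6.61 CPM in EAE libraries and 84.9, 115 and 46.0 CPM in Control libraries. The highest EAE library was below the lowest Control library. The means were 10.9 ± 6.09 CPM in EAE and 82.1 ± 34.8 CPM in Control (SD, n = 3 each), and the log2 fold change of -2.92 ± 0.45 (SE) had an edgeR adjusted p of 0.00676. It too was called without any 1 of the 6 libraries, with an adjusted p of at most 0.0366. Pericyte and smooth muscle markers, of which 14 of 15 tested were called lower, summed to 1230, 988 and 906 CPM in EAE and 7110, 6590 and 4220 CPM in Control. Pcdh18 as a percentage of that sum was 1.46, 0.830 and 0.730 in EAE and 1.19, 1.75 and 1.09 in Control, and the groups overlapped. Of the 8 tested fibroblast and meningeal markers 3 were also called lower, and their part in the Pcdh18 result was not tested.

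Pcdh19 (ENSMUSG00000051323, chromosome X, 133582860 to 133688987, minus strand), mutated in an epilepsy of girls and women, changed less but varied little. Its levels were 42.8, 44.4 and 44.2 CPM in EAE libraries and 71.9, 72.3 and 77.4 CPM in Control libraries. The groups were well apart, with means of 43.8 ± 0.904 CPM in EAE and 73.9 ± 3.05 CPM in Control (SD, n = 3 each). The log2 fold change was -0.75 ± 0.14 (SE) with an edgeR adjusted p of 0.0135. The call was lost without EAE replicate 1 (adjusted p = 0.0760), Control replicate 1 (0.0570) or Control replicate 2 (0.0566). Taken as a percentage of the precursor sum, Pcdh19 was lower in every EAE library, at 0.750, 0.818 and 0.680, than in any Control library, at 2.31, 1.92 and 1.64. The precursor sum itself averaged 5880 CPM in EAE and 3870 CPM in Control. The endothelial sum averaged 387 CPM in EAE and 2080 CPM in Control, and the pericyte and smooth muscle sum 1040 and 5980 CPM. Pcdh19 was not set against these 2 sums, and the part of any cell type in its result was not tested.

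The promoters of the 3 called members listed in the RefSeq table (GRCm38.p6) are shown, since Pcdh18 and Pcdh19 belong to 1 subfamily and both fell while Cdh20 rose. Each is the 250 bases before the gene's start in RefSeq, which lies a few bases from the GENCODE gene ends given with each gene, read 5′ to 3′ on the gene's strand, and capitals mark a CCAAT box on either strand, a motif picked after the sequences had been seen. Cdh5 and Cdh13 are named only.
Pcdh18, chr3:49757317-49757566, minus strand: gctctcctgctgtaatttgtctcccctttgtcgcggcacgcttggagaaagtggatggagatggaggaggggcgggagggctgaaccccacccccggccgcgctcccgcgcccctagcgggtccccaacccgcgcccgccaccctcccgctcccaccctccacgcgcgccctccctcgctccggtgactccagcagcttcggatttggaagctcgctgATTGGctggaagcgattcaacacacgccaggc
Pcdh19, chrX:133688994-133689243, minus strand: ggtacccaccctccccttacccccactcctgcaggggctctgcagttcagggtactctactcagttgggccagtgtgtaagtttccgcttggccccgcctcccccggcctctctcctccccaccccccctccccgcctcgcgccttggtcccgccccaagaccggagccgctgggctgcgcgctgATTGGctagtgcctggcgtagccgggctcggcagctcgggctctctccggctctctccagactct
Cdh20, chr1:104768270-104768519, plus strand: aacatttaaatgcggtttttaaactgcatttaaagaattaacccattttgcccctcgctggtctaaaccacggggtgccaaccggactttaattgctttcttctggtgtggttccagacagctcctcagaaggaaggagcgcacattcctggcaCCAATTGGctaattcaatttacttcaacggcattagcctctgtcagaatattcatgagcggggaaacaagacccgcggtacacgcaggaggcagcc
The motif CCAAT, on either strand, occurred in 33.8% of the 32851 promoter windows of the same length. It stood once in Pcdh18, 32 bases before the start, once in Pcdh19, 65 bases before, and in Cdh20 as 2 overlapping copies. The E-box CANNTG, in 66.2% of windows, occurred once in Pcdh19 and once in Cdh20, where it overlaps the CCAAT copies. The GC box GGGCGG, in 32.7% of windows, occurred once each in Pcdh18 and Pcdh19. The letters ACAAT of the Sox core (27.7% of windows) and CGGAAG of the ETS core (13.6%) occurred in none of the 3 windows. Pcdh18 and Pcdh19 share a run of 12 bases around the CCAAT box, cgctgATTGGct, found in 56 of the 32851 windows, or 0.170%. The run was picked as the longest string common to these 2 windows, so its share of windows is no test of chance. Its part ATTGGct also stands in the window of Cdh20, which was higher in EAE. The GC content was 68.0% in Pcdh18, 69.2% in Pcdh19 and 47.6% in Cdh20. These matches describe letters in the windows, and binding was not measured.

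The other delta-2 members had fold changes above 0 and did not pass the edgeR test. Pcdh10, which takes part in axon growth, had 143, 154 and 179 CPM in EAE and 93.5, 84.8 and 124 CPM in Control. Its EAE libraries were all above the Control libraries, with a log2 fold change of 0.65 ± 0.18 (SE) and an edgeR adjusted p of 0.0690. The adjusted p was 0.0344 without Control replicate 3, and DESeq2 called Pcdh10 higher with an adjusted p of 0.0175. Pcdh17, another protocadherin of growing axons, had 165, 218 and 253 CPM in EAE and 136, 139 and 179 CPM in Control. The groups overlapped at 1 library, and the edgeR adjusted p was 0.195. Pcdh8 averaged 2.06 ± 1.30 CPM in EAE and 0.668 ± 0.483 CPM in Control.

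None of the 4 delta-1 members was called by edgeR, and 2 had an unadjusted p under 0.05, beside 20.2% of all tested genes. DESeq2 called both, Pcdh7 higher and Pcdh1 lower, beside 5.65% higher and 7.10% lower of all genes. Pcdh1 is known from vessel endothelium and airway epithelium. It had 54.9, 47.3 and 109 CPM in EAE and 167, 132 and 130 CPM in Control. All EAE libraries were below Control, and EAE replicate 3 was about midway. The log2 fold change was -1.02 ± 0.30 (SE) with an edgeR adjusted p of 0.0837, and without EAE replicate 3 it was -1.47 with an adjusted p of 0.00200. Set against the endothelial sum as a percentage, Pcdh1 was higher in every EAE library, at 11.8, 13.3 and 32.0, than in any Control library, at 6.25, 6.53 and 8.44. The part of cells outside the endothelium in the Pcdh1 reads was not tested.

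Pcdh7 had 169, 177 and 171 CPM in EAE and 90.5, 128 and 129 CPM in Control. The groups did not overlap, with a log2 fold change of 0.57 ± 0.17 (SE) and an edgeR adjusted p of 0.0818. Of its exonic bases 21.1% lie in an antisense gene, and the strand setting of the counting is not given, so reads of the pair cannot be told apart. Pcdh9, the member with the highest level per counted length, had 466, 654 and 332 CPM in EAE and 448, 455 and 476 CPM in Control. The EAE libraries spanned the Control range on both sides, and the log2 fold change was 0.07 ± 0.23 (SE, edgeR adjusted p = 0.903). Pcdh11x, on the X chromosome, had 23.9, 31.1 and 23.8 CPM in EAE and 17.8, 20.1 and 25.1 CPM in Control, with overlapping groups.

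Of the 3 other nonclustered protocadherins, Pcdh12 had the fold change farthest from 0 but rested on few reads. Pcdh12, known as VE-cadherin-2 and expressed by endothelium, had 0.295, 1.12 and 0.0997 CPM in EAE and 5.34, 7.45 and 1.71 CPM in Control, from 41 reads in EAE and 352 in Control. The groups did not overlap, but both varied widely. The log2 fold change was -3.26 ± 0.91 (SE) with an edgeR adjusted p of 0.0709, and DESeq2 gave 0.00181. Without EAE replicate 2 the edgeR adjusted p was 0.0316, and over all single libraries left out it ran up to 0.216. As a percentage of the endothelial sum, Pcdh12 was 0.0633, 0.315 and 0.0292 in EAE and 0.200, 0.369 and 0.111 in Control, with overlapping groups. Pcdh15, the partner of Cdh23 in hair cell tip links, had 75.4, 66.5 and 74.0 CPM in EAE and 38.7, 70.5 and 93.5 CPM in Control. The EAE libraries lay inside the Control range (edgeR adjusted p = 0.903). Pcdh20 averaged 5.86 ± 2.86 CPM in EAE and 6.52 ± 5.04 CPM in Control.

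**Figure D4:**
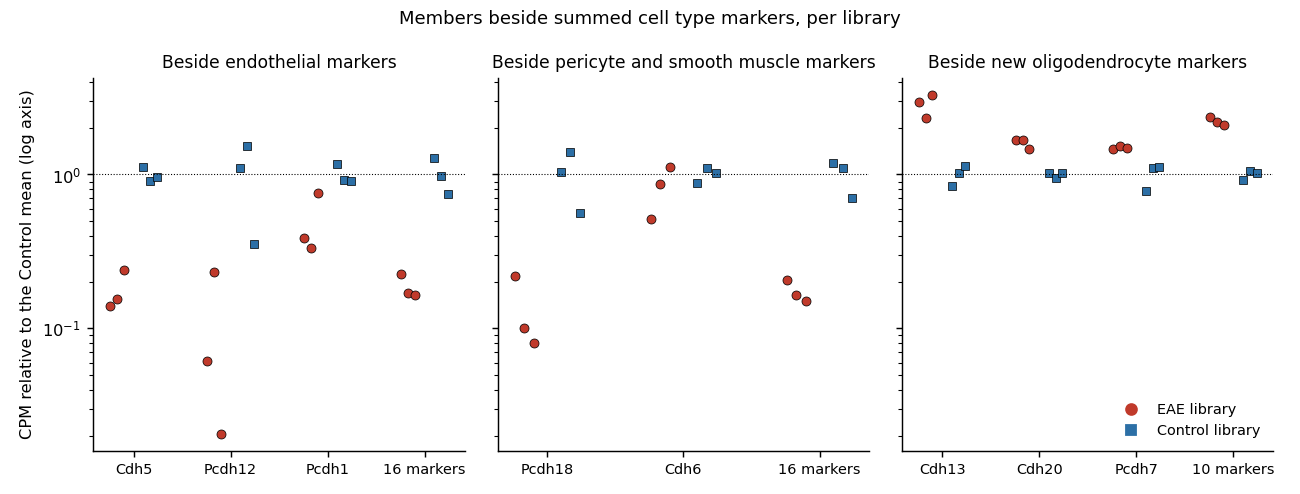
Members beside the summed markers of a cell type, each library as a point relative to the Control mean on a log axis (EAE left of Control). Cdh5 and Pcdh18 sit near the endothelial and pericyte sums in the EAE libraries, Pcdh1 sits above the endothelial sum, and Pcdh12 varies widely. Cdh6 sits above the pericyte sum in the EAE libraries, which overlap its Control libraries. Cdh13, Cdh20 and Pcdh7 are shown beside the newly formed oligodendrocyte sum, and all of their EAE libraries lie above their Control libraries.

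The clustered protocadherins stand on chromosome 18 in 3 arrays, and none of their 23 tested rows passed the edgeR test. The alpha cluster (36930184 to 37187661) has 14 annotated genes and the gamma cluster (37661793 to 37841873) has 22, and the table held 1 row with a symbol for each. The alpha row carries the symbol Pcdha11 and a counted length of 24670 bp, where the gene of its identifier has 5359 exonic bp in the annotation. No single alpha gene has more than 7535, the length of another annotated entry that is also named Pcdha11. The gamma row carries the symbol Pcdhgc4 and a length of 26094 bp, beside 5596 exonic bp for that gene and at most 7627 for any single gamma gene. Both rows are therefore described as rows of their cluster, not as 1 gene.

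The alpha row had 31.2, 29.5 and 66.7 CPM in EAE and 22.2, 22.2 and 17.5 CPM in Control. All EAE libraries were above the Control libraries, and EAE replicate 3 was far above the other two. The log2 fold change was 1.04 ± 0.32 (SE) with an edgeR adjusted p of 0.0993, and 0.57 with an adjusted p of 0.183 without EAE replicate 3. DESeq2 called the row higher, with an adjusted p of 0.0196. The gamma row took the largest share of member reads in 5 of 6 libraries, with Pcdh9 ahead of it in EAE replicate 2. It had 619, 599 and 862 CPM in EAE and 455, 552 and 571 CPM in Control. Its groups did not overlap, but EAE replicate 3 again stood above the rest. The log2 fold change was 0.40 ± 0.19 (SE, edgeR adjusted p = 0.280), and 0.22 without EAE replicate 3. EAE replicate 3 was also the library with the highest neuron marker sum (1 of 7 tested markers called higher and 1 lower), 115 CPM beside 52.4 and 58.9 CPM in the other EAE libraries and 21.9, 33.7 and 32.8 CPM in Control. The same library was highest for the precursor (6500 CPM), Schwann cell (298 CPM), myeloid (344 CPM) and T cell (14.1 CPM) marker sums. The part of these markers in the alpha and gamma levels was not tested.

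The beta cluster (37264938 to 37524479) has 22 genes, each with a row of its own, and 21 were tested. Their fitted log2 fold change was above 0 for 18 of 21, or 85.7%, with a median of 0.58. For 7 of 21 rows every EAE library was above every Control library, and for 0 the reverse, beside 13.4% of all tested genes in each direction. By edgeR 0 of 21 passed and 5 had an unadjusted p under 0.05, beside 20.2% of all genes. DESeq2 called 4 of 21 higher, beside 5.65% of all genes, and limma-voom 1, beside 1.86%. Summed over the rows, the beta genes had 196, 166 and 213 CPM in EAE and 107, 135 and 143 CPM in Control. The sums did not overlap, and the EAE mean was 1.5 times the Control mean. Rows of close relatives can share reads, so they are not independent counts.

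Pcdhb2 had the largest fold change of the beta rows with at least 10 CPM in a group. It had 18.6, 15.8 and 22.7 CPM in EAE and 3.95, 11.1 and 4.40 CPM in Control, with a log2 fold change of 1.55 ± 0.41 (SE) and an edgeR adjusted p of 0.0600. DESeq2 gave 0.00325 and limma-voom 0.0348, and without Control replicate 2 the edgeR value was 0.0172. Pcdhb18 had 23.7, 17.5 and 27.1 CPM in EAE and 9.95, 13.4 and 13.4 CPM in Control. Pcdhb9 had 17.5, 17.9 and 12.8 CPM in EAE and 5.01, 7.85 and 9.95 CPM in Control. Both had groups that did not overlap, with edgeR adjusted p-values of 0.0717 and 0.0805 and DESeq2 values of 0.0161 and 0.0157. Pcdhb16 had 17.7, 14.2 and 18.2 CPM in EAE and 12.3, 12.7 and 8.42 CPM in Control, without overlap (edgeR adjusted p = 0.247). Pcdhb14 had 18.2, 16.5 and 27.5 CPM in EAE and 15.6, 16.2 and 17.6 CPM in Control. Pcdhb17 had 13.3, 10.6 and 13.3 CPM in EAE and 12.2, 8.33 and 24.9 CPM in Control. Pcdhb10 had 15.0, 10.9 and 7.68 CPM in EAE and 2.22, 3.54 and 14.9 CPM in Control. These last 3 had overlapping groups, with Control replicate 3 the highest Control library in each. Of the other tested beta rows, Pcdhb6 and Pcdhb13 had log2 fold changes of -0.84 and -0.42, and Pcdhb17 had -0.29. Pcdhb12, with 1.84 ± 0.60 (log2 fold change, SE), has 63.5% of its exonic bases in an antisense gene. DESeq2 called it higher, with an adjusted p of 0.0338.

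**Figure D5:**
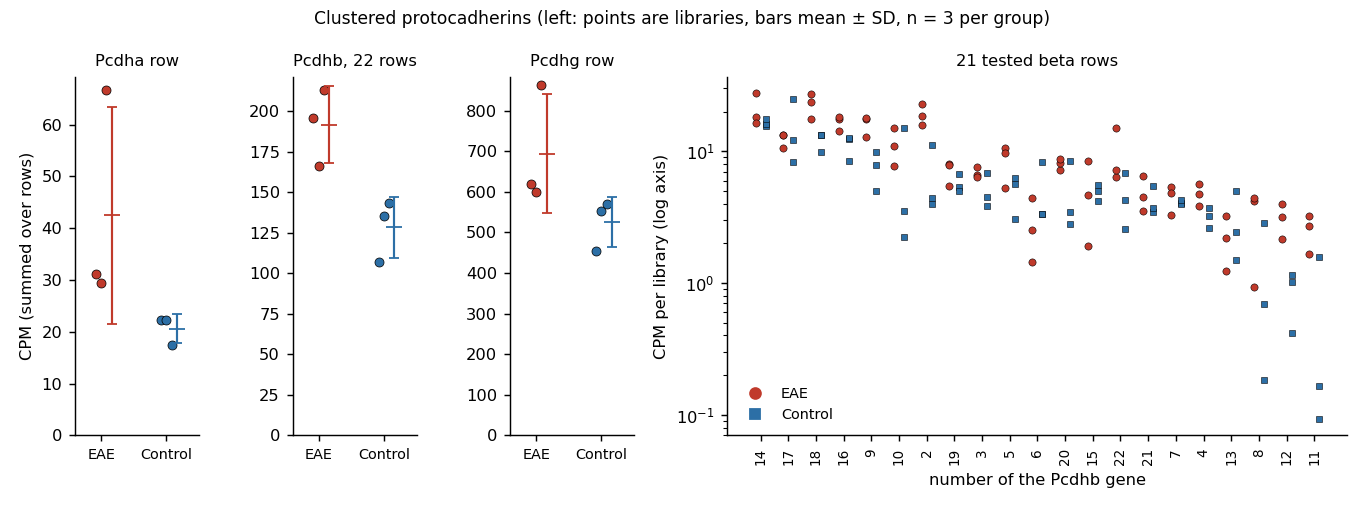
Clustered protocadherins. Left, summed CPM of each cluster per library with mean and SD (n = 3), EAE left of Control. Right, CPM of each tested beta row per library on a log axis, named by the number of the Pcdhb gene. The beta sums of 166 to 213 CPM in EAE lie above those of 107 to 143 CPM in Control.

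The 10 members not tested had between 1 and 25 reads over all 6 libraries. The highest were Cdh16, a kidney cadherin, Cdh7, and Cdh3, P-cadherin. Cdh16 had 22 reads in EAE, all in EAE replicate 1, and 3 in Control. Cdh7 had 20 reads in EAE and 5 in Control, the latter all in Control replicate 3. Cdh3 had 5 reads in EAE, all in EAE replicate 3, and 15 in Control, all in Control replicate 2. A count of 0 in a library allows up to 3 reads, or 0.104 to 0.135 CPM, and covers counting error only. At this depth, no difference could be seen for these members. Of the tested members, 44 were over the count cut-off of 0.385 CPM in all 6 libraries. The other 5, Pcdhb8, Pcdhb11, Pcdh8, Pcdh12 and Cdh22, were under it in at least 1 library.

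Partners of the cadherins inside the cell changed in part. Of 20 catenins and junction adaptors tested, 4 were lower and 0 higher by edgeR, 10 had an unadjusted p under 0.05, and DESeq2 called 6 lower and 1 higher. Over all tested genes edgeR called 4.33% lower and 2.82% higher, and 20.2% had an unadjusted p under 0.05. DESeq2 called 7.10% of all genes lower and 5.65% higher. In the same libraries 16 of 16 endothelial and 14 of 15 tested pericyte and smooth muscle markers were called lower, with Control sums 5.36 and 5.74 times the EAE sums. Their part in the counts of these partner genes was not tested. Vcl, vinculin, which joins junctions to actin under tension, averaged 29.3 ± 4.12 CPM in EAE and 93.4 ± 20.0 CPM in Control (SD, n = 3 each), with an edgeR adjusted p of 0.00271. Ajuba, a LIM adaptor of junctions, averaged 1.05 ± 0.124 CPM in EAE and 7.29 ± 1.63 CPM in Control (adjusted p = 0.00509). Nectin1, an adhesion protein that acts beside cadherins, averaged 40.6 ± 4.34 CPM in EAE and 75.5 ± 12.7 CPM in Control (0.0186). Jup, plakoglobin, averaged 105 ± 11.4 CPM in EAE and 170 ± 18.4 CPM in Control (0.0271). Vcl and Ajuba were called without any 1 of the libraries, while the adjusted p reached 0.105 for Jup and 0.0779 for Nectin1. The genes of beta-, p120- and alpha-E-catenin did not pass the edgeR test, while DESeq2 called Ctnnb1 lower. Ctnnb1 averaged 212 CPM in EAE and 306 CPM in Control (edgeR adjusted p = 0.107), Ctnnd1 203 CPM in EAE and 261 CPM in Control, and Ctnna1 163 CPM in EAE and 147 CPM in Control.

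Of 16 tested genes that cleave, recycle or dephosphorylate cadherins, 1 was higher and 2 were lower by edgeR, beside 2.82% higher and 4.33% lower of all genes. Ptprb, the receptor phosphatase VE-PTP that binds VE-cadherin, averaged 88.1 ± 16.4 CPM in EAE and 448 ± 65.4 CPM in Control (edgeR adjusted p = 0.00100). It was 5.09-fold lower in EAE, where the endothelial marker sum was 5.36-fold lower. Ptprm, a homophilic receptor phosphatase, averaged 29.6 ± 3.06 CPM in EAE and 75.8 ± 13.7 CPM in Control (0.00426). Rapgef1, an activator of the small GTPase Rap1, averaged 144 ± 12.6 CPM in EAE and 91.7 ± 10.0 CPM in Control (0.0311, and up to 0.135 with 1 library left out). Of 21 genes for promoter choice and signalling of the clustered protocadherins, 3 were higher and 0 lower by edgeR, beside the same 2.82% and 4.33% of all genes. An unadjusted p under 0.05 was reached by 4, beside 20.2% of all genes, and DESeq2 called 4 higher, beside 5.65%. Cyfip2, a subunit of the WAVE complex of actin assembly, averaged 299 ± 53.8 CPM in EAE and 93.5 ± 15.0 CPM in Control (edgeR adjusted p = 0.00204). Fyn, a Src-family kinase that is also in the list of newly formed oligodendrocyte markers, averaged 316 ± 66.5 CPM in EAE and 147 ± 39.0 CPM in Control (0.0262). Wasf1, another WAVE subunit, averaged 72.7 ± 9.75 CPM in EAE and 40.4 ± 7.92 CPM in Control (0.0305). With 1 library left out the adjusted p reached 0.0888 for Fyn and 0.130 for Wasf1. Neither Ctcf nor the cohesin genes of the list, which set clustered promoter choice in neurons, passed.

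Of the other genes of the cadherin superfamily, 12 of 25 were tested and edgeR called 0. An unadjusted p under 0.05 was reached by 2, Fat4 and Clstn1, beside 20.2% of all genes. DESeq2 called 1 lower, Fat4, beside 7.10% of all genes. Fat4, a giant cadherin of planar polarity, averaged 25.2 ± 5.97 CPM in EAE and 45.8 ± 6.71 CPM in Control, with an edgeR adjusted p of 0.0524. Fat2, Dsg1a, Dsg3, Dsc1 and Cdhr5 had no read in any library.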

How the data were processed

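RNA of NG2-tdTomato-positive spinal cord cells was measured in 6 bulk libraries. The authors deposited raw read counts per gene with a feature length in base pairs. FastQC, STAR, featureCounts, edgeR 3.24.3 and the build mm10 appear, per the submitters' processing notes. Settings, annotation release, strand and handling of multi-mapped reads are not stated in the labels, so reads of close relatives and antisense genes may be shared. Symbols and coordinates came from GENCODE M21 (GRCm38), and 36345 identifiers matched (94.9%).

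Here, counts were filtered with filterByExpr (minimum count 10, minimum total 15), scaled by TMM and tested with the 2-sided quasi-likelihood F test of edgeR 4.0.16 in R 4.3.3, EAE against Control. p-values were adjusted by Benjamini-Hochberg over 16966 genes and called under 0.05. The SE is the size of the log2 fold change over the root of F. CPM used TMM library sizes. The median log2 fold change of all genes was 0.004 and at most 0.050 under another scaling. Alternatives were other scalings and filters, DESeq2 1.42.0, limma-voom (limma 3.58.1), a replicate block and each library left out. The fit was tested on simulated counts.

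Members that were called or averaged 10 CPM in a group are given in full, others by family, untested ones by range with the 3 highest named. Of other lists, called genes are named, up to 8 a list. Genes named outside this rule were chosen after their values were seen. The members, lists and rules were chosen with earlier results of these data known. An exact permutation test of 3 against 3 cannot go below a 2-sided p of 0.1.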

Additional observations from a re-analysis of the deposited data

How the results depend on the processing

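The 5 called members were also called by RLE, upper-quartile and library-size scaling, with no filter, with a stricter filter, by DESeq2 and by limma-voom. With no filter, Pcdhb2 (higher) and Pcdh12 (lower) were called as well. The members called numbered 2 higher and 3 lower, and DESeq2 gave 9 higher and 5 lower, or 18.4% and 10.2% of those tested beside 5.65% and 7.10% of all genes. Over the single libraries left out, 1 to 4 were called higher and 2 to 4 lower, beside 0.673% to 2.82% of all genes higher and 1.82% to 4.28% lower. Without EAE replicate 1, EAE replicate 2 or Control replicate 1, 1 was called higher, beside 1.28%, 2.82% and 0.673% of all genes, and without Control replicate 3, 4 were, beside 1.60%, with Pcdhb10 and Pcdh10 added. Without EAE replicate 1, Control replicate 1 or Control replicate 2, 2 were called lower. Replicate numbers are shared by the groups, but same-numbered libraries did not deviate together (correlations 0.016, -0.040 and -0.034). With a replicate block, 1 member was called higher and 4 lower, beside 1.59% and 3.23% of all genes, since Cdh20 had an adjusted p of 0.0592 and Pcdh12 one of 0.0302, and 818 genes in all were called in place of 1212; catenin and partner genes called higher numbered 1 in place of 4. DESeq2 called 2162 genes. Over the libraries left out, catenin and partner genes called higher ran from 1 to 6 and lower from 4 to 6. The other superfamily genes called lower were 1 with no filter, with a stricter filter and by DESeq2, and 0 to 1 over the libraries left out. Log2 ratios of the cluster sums stayed above 0, from 0.56 to 1.25 for alpha, 0.46 to 0.67 for beta and 0.21 to 0.49 for gamma. Fold changes near 0 of uncalled members changed sign: Pcdhb15 was -0.19 with the block and -0.18 by limma-voom, and Pcdh20 was 0.13 with the block and 0.17 by limma-voom. With single libraries left out, the log2 fold change ran from -0.79 to 0.18 for Pcdhb13, -0.56 to 0.45 for Pcdhb15, -0.58 to 0.27 for Pcdhb17, -0.04 to 0.44 for Pcdhb21, -0.003 to 0.30 for Pcdhb7, -0.20 to 0.29 for Pcdh9, -0.19 to 0.40 for Pcdh15, -0.61 to 0.58 for Pcdh20, -0.34 to 0.06 for Cdh10, -0.24 to 0.41 for Cdh18, -1.08 to 0.06 for Cdh24 and -0.53 to 0.003 for Cdh6. The cause was not tested. Groups of 3 libraries with a biological coefficient of variation of 39.6% limit what can be called.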

Other observations

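The reads of the family were held by few genes. The gamma row took 24.2%, 21.7% and 29.7% of the member reads in the EAE libraries and 19.7%, 22.1% and 22.2% in the Control libraries. Pcdh9 took 18.3%, 23.7% and 11.5% in EAE and 19.4%, 18.2% and 18.5% in Control, and was ahead of the gamma row in EAE replicate 2. Cdh5 took 0.854%, 0.872% and 1.28% in EAE and 7.56%, 5.67% and 5.83% in Control. EAE replicate 3 was the highest EAE library for 23 of 49 tested members and for 11 of 21 tested beta rows, EAE replicate 2 for 15 and 4, and EAE replicate 1 for 11 and 6. Control replicate 3 was the highest Control library for 23 tested members, Control replicate 2 for 19 and Control replicate 1 for 7.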
